A study of Ambystoma californiense with 99 samples.

Results

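The genes described here are nuclear genes whose products build the mitochondrial respiratory chain. They were chosen by name: a feature was taken where its gene name, ignoring case and an ending .L or .S, began with NDUF, UQCR, SDH followed by A to D, COX4, COX5, COX6, COX7, COX8 or ATP5. This took in 49 of 23251 features, under 40 names. A feature was described in a tissue where its mean over the compared libraries was at least 1 CPM, which left 45 features in muscle and 42 in brain. CPM are reads scaled to a common library total, and this mean used no further scaling. The CPM values of libraries and groups printed below are after TMM scaling, a correction for differences in library makeup. The choice by name and mean level used no difference between groups.

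The respiratory chain passes electrons from NADH and succinate to oxygen through complexes in the inner mitochondrial membrane. Complex I takes electrons from NADH and complex II, which is also the succinate dehydrogenase of the citric acid cycle, from succinate. Complex III hands them on to cytochrome c, complex IV passes them to oxygen, and complex V, the ATP synthase, makes ATP from the proton gradient that complexes I, III and IV build. Skeletal muscle and brain both depend on it for ATP. Most subunits are encoded in the nucleus, a few in mitochondrial DNA, and complex II is encoded in the nucleus alone.

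RNA sequencing was done on whole brain and leg muscle of California tiger salamanders (CTS, Ambystoma californiense), of BTS animals, an abbreviation taken here to mean barred tiger salamander, and of their F1 hybrids. Control animals were compared with animals under acute heat until they no longer righted themselves within 30 seconds when laid on their backs. Muscle gave 5 control and 5 heated CTS, 5 control and 6 heated BTS, and 13 control and 12 heated F1 libraries. Brain gave the same numbers except for 10 heated F1 libraries. The labels also list a heated F1 brain sample of animal 17, for which the brain counts hold no column. A further 4 libraries per tissue came from backcrosses and entered no test. The labels name Ambystoma californiense as the organism of every library and give no age, and the title of the series concerns heat tolerance in the hybrids. They give the sex, and each CTS, BTS and F1 group held both sexes in unequal numbers. In both tissues males were the fewer in control CTS and the more in heated CTS, and the reverse in BTS. Most F1 animals were female. Sex was a term of the main fits, while the CPM values printed by group are not adjusted for it.

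Muscle libraries held 1232774 to 20068304 counted reads, apart from 66186 in heated F1 animal 11, and brain libraries 3213005 to 13506066, apart from 5418 in heated F1 animal 16. In the brain library of animal 16 the neuron markers were at 0 CPM and the skeletal muscle markers summed to 41127 CPM, so this library goes against its tissue label. In the other brain libraries the 5 neuron markers found, of 9 listed, summed to at least 1129 CPM. The lowest of these, heated CTS animal 7, also held 2837 CPM of skeletal muscle markers and 1451 CPM of fast fibre markers, while the other brain libraries apart from animal 16 held at most 1216 CPM and 145 CPM. Skeletal muscle markers, 7 of 10 found, summed to at least 90045 CPM in every muscle library. Skin markers, 7 of 9 found and none at 0 throughout, summed to over 200 CPM in 7 muscle libraries, which were heated F1 animals 2 and 67, control F1 animal 25, heated CTS animals 7 and 13, control CTS animal 63 and control BTS animal 68. Titles and tags disagree on the genotype of heated CTS animal 76, and F1 animal 64 carries a control label for its brain and a heat label for its muscle. Counts were repeated without these libraries as sets and without animals 64 and 76. The set with markers of other tissues was control animals 25, 63, 66 and 68 in muscle and animals 7 and 16 in brain. It held no heated muscle library.

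Complex I was represented by 18 features, of which 16 passed the mean of 1 CPM in each tissue. Complex II was represented by sdha.L, the subunit that carries the flavin and oxidises succinate, and sdhc, a membrane anchor. Complex III had uqcrc1.L, a core subunit listed under 2 features, and Uqcrh, the hinge protein. Complex IV had cox4i2, cox6a1 and cox7a2.S, and complex V 12 features, 11 of them passing in muscle and 8 in brain. The remaining members are assembly factors, which help to build a complex and are not part of it: 9 NDUFAF features for complex I, 8 of them passing in each tissue, and SDHAF1 and SDHAF2 for complex II. The names COX4I1, COX6A2, COX7A1, COX8A, SDHB, SDHD, UQCRC2 and UQCRFS1 matched no feature and are not analysed here. Near the threshold, atp5g3 (AMEXTC_0340000067166) averaged 1.84 CPM in muscle, just inside. In brain NDUFAF5 (AMEXTC_0340000066960) averaged 3.01 CPM, just inside, and ATP5L 0.426 CPM, just outside. A second ndufb5 feature (AMEXTC_0340000065887) and a further atp5g3 feature (AMEXTC_0340000050877) had no read in any library.

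Members took 0.342% to 3.38% of the counted reads of a muscle library, median 1.73%, and 0.255% to 0.534% of those of a brain library, median 0.457%, leaving out the shallow libraries. Shares of the complexes were taken from the mean CPM of the members before TMM scaling, with the shallow libraries included. Complex V took 65.0% in muscle and 56.2% in brain, complex I 18.3% and 17.9%, and complex II 9.58% and 12.2%. Complex III took 4.12% and 4.49%, and complex IV 1.88% and 6.14%. The share of complex IV rests on 3 features, and COX4I1, COX6A2 and COX7A1 matched none, so it does not cover the whole complex. Gene lengths are not in the files, so levels are compared between groups within a gene and not between genes. The summed level of the complex I subunits in muscle was 1763, 1784, 2149, 2937 and 3269 CPM in the control CTS libraries. In control BTS it was 2544, 2788, 4070, 4186 and 4878 CPM, and the groups overlapped, as the highest 2 control CTS libraries lay above the lowest 2 of control BTS. The complex II sum was 1343, 1560, 1597, 1796 and 1857 CPM in control CTS and 1440, 1496, 1611, 1778 and 1791 CPM in control BTS, so that the groups covered nearly the same range.

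**Figure D1:**
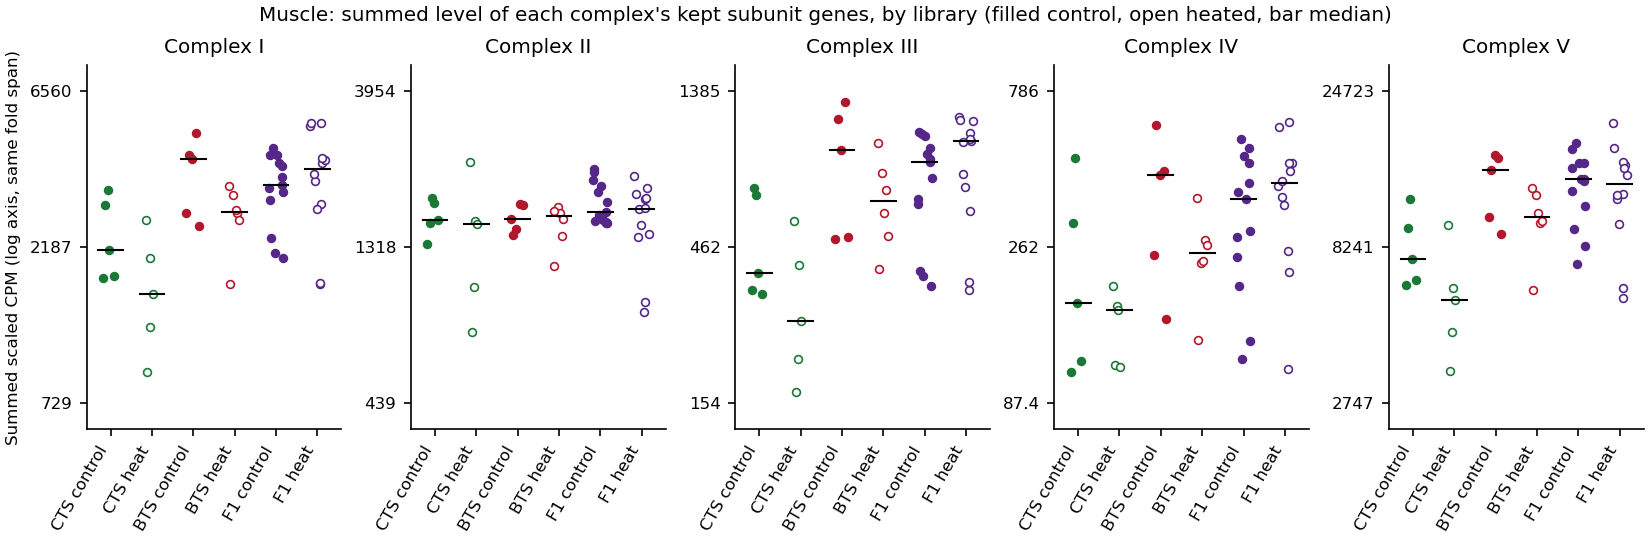
Summed scaled CPM (log axis) of the subunit genes of complexes I to V in each muscle library, with control libraries filled, heated libraries open and a bar at the group median. Complex I medians ran from 1571 CPM in heated CTS to 4070 CPM in control BTS, and complex II medians from 1554 CPM in heated CTS to 1728 CPM in heated F1.

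Muscle of BTS held more RNA of most respiratory chain genes than muscle of CTS. By edgeR's quasi-likelihood test with Benjamini-Hochberg adjustment over all 12554 features, over control and heated animals together, 29 of 45 members were higher in BTS and 0 lower at an adjusted p under 0.05. Over all features 22.6% were called higher in BTS and 24% lower. The median difference was 0.71 on the log2 scale over the members and -0.02 over all features. In bulk tissue, fewer cells of a type and less RNA per cell cannot be told apart, and reads of both species were counted on the same features, so a difference in RNA and a difference in how well the reads match the reference cannot be told apart either.

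Among the subunits, 11 of 16 features of complex I were higher in BTS (median 0.65), 3 of 3 of complex III (0.89), 2 of 3 of complex IV (1.01) and 8 of 11 of complex V (0.79). For complex II it was 0 of 2. In control CTS sdha.L stood at 941, 942, 1196, 1199 and 1339 CPM, and in control BTS at 726, 856, 878, 1064 and 1067 CPM. Its log2 difference over all animals was -0.17 (SE 0.16, adjusted p = 0.417). For sdhc the control CTS libraries held 398, 402, 517, 600 and 618 CPM and the control BTS libraries 547, 641, 711, 713 and 914 CPM. The ranges overlapped, and its difference of 0.43 (SE 0.19) had an adjusted p of 0.0527, close to the threshold. Whether complex II differs from the other complexes was not tested, since it rests on these 2 genes.

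The ratio of the complex I sum to the complex II sum, which does not depend on the scaling between libraries, was 1.12, 1.20, 1.31, 1.76 and 1.88 in control CTS and 1.43, 1.73, 2.72, 2.72 and 2.91 in control BTS muscle. In heated CTS it was 1.01, 1.10, 1.26, 1.26 and 1.28, and in heated BTS it ran from 1.46 to 1.98 with a median of 1.74. Heated BTS libraries thus lay above all heated CTS libraries, while the control groups overlapped. In the F1 the ratio ran from 1.12 to 2.48 in controls, median 2.01, and from 1.71 to 2.85 in heated animals, median 2.12.

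In complex I the largest differences were those of NDUFS1 and ndufs4, both subunits of the arm that takes in NADH. NDUFS1 (AMEXTC_0340000058513), which carries iron-sulfur clusters at the entry of electrons, stood at 69.4, 76.4, 77.8, 83.9 and 99.1 CPM in control CTS and at 139, 153, 178, 184 and 191 CPM in control BTS, with no overlap. Heated CTS libraries held 23.6, 37.2, 57.6, 78.0 and 92.2 CPM and heated BTS libraries 86.6 to 202 CPM (median 152), which overlapped at 1 library of each. The log2 difference was 1.21 (SE 0.18, adjusted p = 3.36e-07). A further NDUFS1 feature (AMEXTC_0340000052192) gave 0.84 (adjusted p = 0.00738), and reads of one gene could be split between such features.

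The accessory subunit ndufs4, whose loss causes Leigh syndrome in humans, stood at 52.7, 56.1, 69.9, 84.2 and 89.0 CPM in control CTS and at 100, 106, 167, 204 and 227 CPM in control BTS, again without overlap. Heated CTS ran from 34.9 to 81.1 CPM (median 45.8) and heated BTS from 60.9 to 149 CPM (median 116), which overlapped. It differed by 1.13 (SE 0.22, adjusted p = 6.12e-05). NDUFA8, an accessory subunit, differed by 1.03, ndufs7, a core iron-sulfur subunit near the ubiquinone site, by 0.94, and ndufv1.L, which binds NADH, by 0.77. The 5 complex I features that were not called were ndufb5, ndufb8, ndufb9, NDUFV2 and NDUFV3, with differences from -0.05 to 0.44.

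In complex III the uqcrc1.L features differed by 1.11 (AMEXTC_0340000216951, adjusted p = 0.000259) and 0.89, and Uqcrh by 0.81. In complex IV cox7a2.S, a small subunit, was at 28.7, 28.9, 33.2, 68.0 and 99.6 CPM in control CTS and at 36.1, 53.1, 103, 115 and 213 CPM in control BTS, and differed by 1.20 (SE 0.30, adjusted p = 0.00109). The control groups overlapped, and the difference within controls was not called. For cox4i2, an isoform of subunit 4 linked to low oxygen in mammals, the difference was 1.01 (adjusted p = 0.005), and for cox6a1 it was 0.47 (adjusted p = 0.188).

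Complex V gave its largest called difference in atp5g3 (AMEXTC_0340000039760), a gene of the rotating c ring, with 160, 198, 251, 339 and 382 CPM in control CTS and 368, 435, 581, 690 and 766 CPM in control BTS. These overlapped only between the highest CTS and the lowest BTS library, and the log2 difference was 1.18 (SE 0.21, adjusted p = 7.06e-06). The catalytic core followed with smaller differences: ATP5C1, the turning central stalk, by 0.95, atp5a1, the alpha subunit, by 0.64 and Atp5b, the beta subunit that makes ATP, by 0.63 (adjusted p = 0.00756). In the stalk that holds the head in place, atp5o differed by 0.85, atp5f1 by 0.79 and ATP5H by 0.78. The 3 uncalled features were those with means under 5 CPM, atp5g3 (AMEXTC_0340000067166), atp5d (AMEXTC_0340000067807) and ATP5L.

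**Figure D2:**
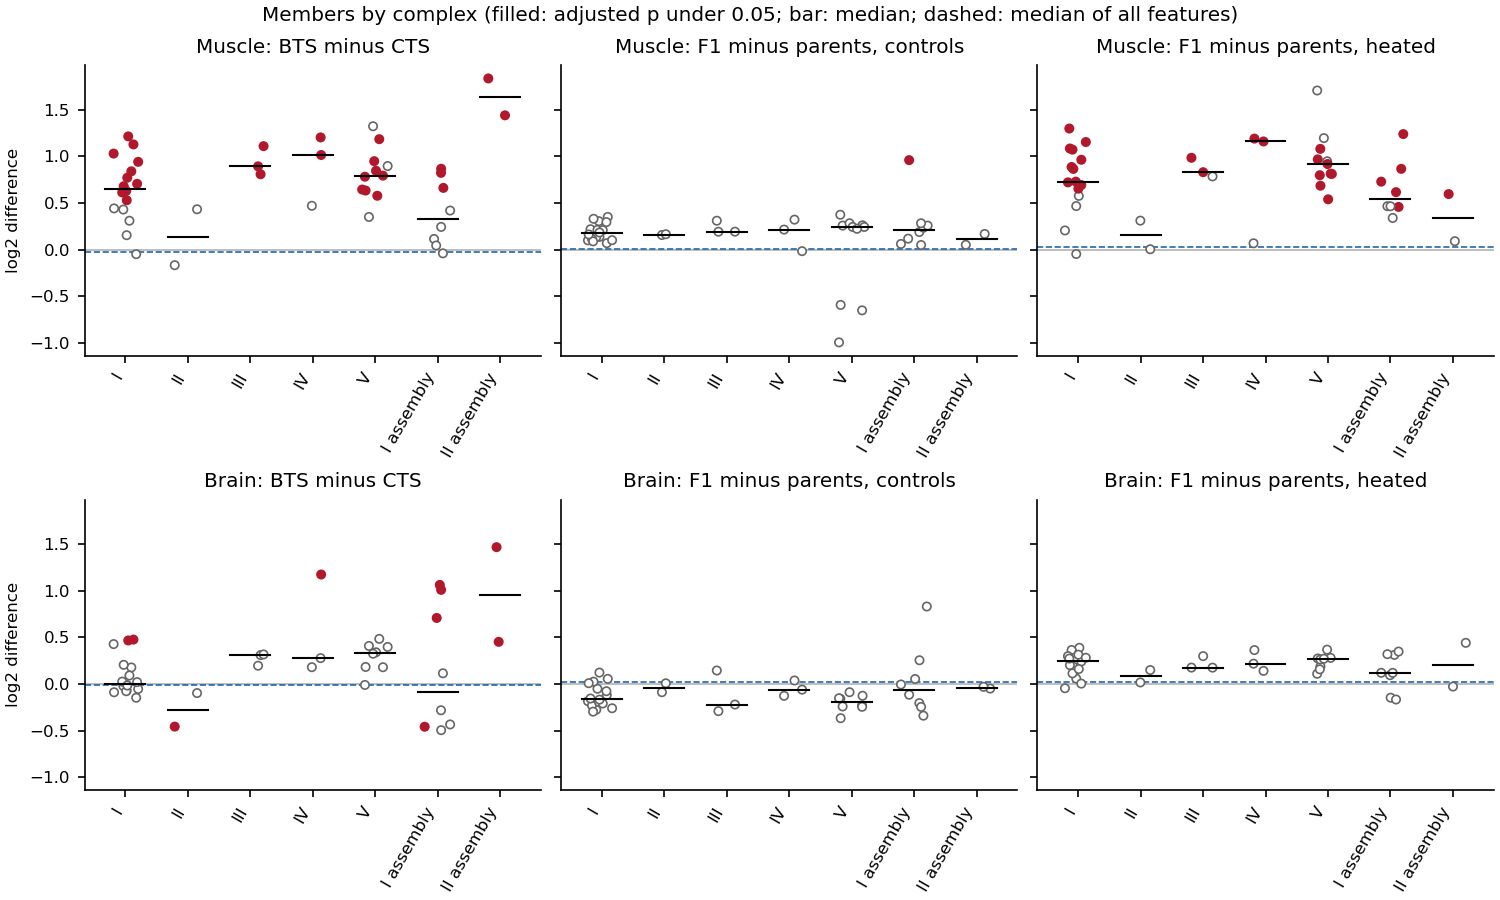
The log2 difference for each member by complex, in muscle (top) and brain (bottom). Panels show BTS against CTS over all animals, and F1 against the mean of CTS and BTS in controls and in heated animals separately. Filled points passed an adjusted p of 0.05, bars are medians and the dashed line is the median of all features. In muscle the called members all lie above 0 in both comparisons, and in brain 2 called members lie below 0 between BTS and CTS.

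The largest species differences were in the assembly factors of complex II. SDHAF2, which attaches the flavin to SDHA, was at 16.9, 18.1, 21.5, 27.0 and 30.7 CPM in control CTS muscle and 49.1, 67.9, 112, 114 and 120 CPM in control BTS. Heated CTS libraries held 16.1, 16.5, 18.7, 29.5 and 31.9 CPM, and heated BTS libraries 48.6 to 98.8 CPM with a median of 67.7, so all BTS libraries lay above all CTS libraries. The log2 difference was 1.84 (SE 0.19, adjusted p = 1.44e-10). SDHAF1, needed for the iron-sulfur subunit of complex II, differed by 1.44 (adjusted p = 1.96e-07), from 1.22 to 1.74 CPM in control CTS to 2.60 to 6.74 CPM in control BTS.

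Of the complex I assembly factors 3 of 8 were higher in BTS muscle, with a median difference of 0.33. These were both features of NDUFAF3, which with NDUFAF4 helps to build the ubiquinone-binding part, and ndufaf4. NDUFAF3 (AMEXTC_0340000048446) was at 28.8, 29.6, 36.6, 39.3 and 40.8 CPM in control CTS and at 43.3, 47.6, 57.4, 57.7 and 80.3 CPM in control BTS, with no overlap, and differed by 0.82 (SE 0.14, adjusted p = 3.52e-06).

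Within controls alone 11 members were higher in BTS muscle, beside 13.3% of all features, and within heated animals 20, beside 14.7%. Without the 7 libraries with skin markers the count was 14 with a median of 0.45. Without the 4 muscle controls in which markers of other tissues were seen it was 16 with a median of 0.53. Shares of all features for these sets of libraries are not given here, and both settings use fewer libraries. Cytosolic ribosomal protein genes, 49 names listed after the data were seen, moved alongside the members. Their summed level had a median of 9591 CPM (6600 to 20168) in control CTS and 24389 CPM (8247 to 29448) in control BTS. Connective tissue markers, 4 of 6 found, went the other way, at 259 to 440.9 CPM (median 400.8) in control CTS and 65.6 to 302.5 CPM (median 278) in control BTS. The part of both lists in the result was not tested.

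In brain the species difference took in fewer members and went both ways. In BTS 8 of 42 members were higher and 2 lower, beside 18.1% of all 15496 features higher and 17% lower, with a median of 0.18 over the members and -0.01 over all features. With RLE scaling, which uses DESeq2's size factors, 7 were higher and 5 lower, beside 2387 of all 15496 features higher and 3160 lower. DESeq2 called 8 higher and 5 lower, and the share of all features it called is not given here. Of the subunits, 2 of 16 in complex I were higher (ndufs4 by 0.48 and NDUFS1, AMEXTC_0340000058513, by 0.47, both also called in muscle), 1 of 3 in complex IV, 0 of 3 in complex III and 0 of 8 in complex V. A share of members near that of all features is not a result about the respiratory chain. The ndufs4 call was lost without CTS animal 57, 76 or 83, and that of NDUFS1 without CTS animal 13, 57, 76 or 83 or BTS animal 60, 68, 71, 75 or 90. Within control animals alone 5 members were higher, beside 10.1% of all features, and within heated animals 5, beside 9.89%. Other lists moved alongside: cytosolic ribosomal protein genes summed to 6341 to 16857 CPM (median 15818) in control CTS brain and 16510 to 24326 CPM (median 18680.3) in control BTS. Connective tissue markers summed to 59.6 to 117 CPM (median 77.4) and 110 to 251 CPM (median 133). Their part in the result was not tested.

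The brain calls were mostly assembly factors. SDHAF2 was at 18.9, 22.3, 25.0, 30.5 and 41.8 CPM in control CTS brain and 42.4, 56.6, 57.5, 96.0 and 107 CPM in control BTS. These control groups did not overlap. In heated animals SDHAF2 and SDHAF1 together summed to as little as 42.5 CPM in BTS (animal 20) and up to 36.2 CPM in CTS (animal 7). For SDHAF2 the log2 difference over all animals was 1.47 (SE 0.22, adjusted p = 7.37e-07). NDUFAF3 (AMEXTC_0340000048446) was at 13.4, 13.7, 14.9, 19.3 and 19.7 CPM in control CTS and at 25.4, 29.0, 29.5, 29.8 and 39.3 CPM in control BTS, and differed by 1.06 (adjusted p = 5.1e-10). Ndufaf6, a further complex I assembly factor, differed by 1.01 (adjusted p = 0.000186) and SDHAF1 by 0.45 (adjusted p = 0.0294), a call that was lost without CTS animal 4, 13, 63 or 77 or BTS animal 53 or 69, and by DESeq2.

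The complex IV isoform cox4i2 was at 24.1, 38.4, 46.2, 52.1 and 66.2 CPM in control CTS brain and at 83.0, 97.9, 99.6, 99.6 and 124 CPM in control BTS, without overlap. Heated CTS ran from 22.6 to 63.7 CPM (median 28.8) and heated BTS from 52.1 to 132 CPM (median 93.3), which overlapped. Its log2 difference was 1.17 (SE 0.22, adjusted p = 4.27e-05). The flavoprotein gene of complex II went the other way: sdha.L was at 347, 358, 392, 545 and 570 CPM in control CTS and 196, 275, 312, 378 and 381 CPM in control BTS. Its difference was -0.46 (SE 0.12, adjusted p = 0.00316), with overlapping ranges. NDUFAF5 (AMEXTC_0340000066960), an enzyme that modifies a complex I subunit, was also lower, by -0.46 (adjusted p = 0.0485), a call that was lost without any 1 of 13 animals in turn.

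The members called in both tissues numbered 7, which is 24.1% of the muscle calls and 70% of the brain calls, and all 7 had the same direction in both. Over all features 2497 were called in both, 42.7% of the muscle calls and 45.8% of the brain calls, and 85.9% of these had the same direction. The members were SDHAF2, SDHAF1, both NDUFAF3 features, cox4i2, ndufs4 and NDUFS1 (AMEXTC_0340000058513). The brain calls of SDHAF1, ndufs4 and NDUFS1 did not hold without single animals, as given above, and that of NDUFAF3 (AMEXTC_0340000002644) not with RLE scaling. Most animals gave both tissues, so the 2 tissues are not independent samples of the species. Whether the species difference itself differs between tissues was not tested.

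**Figure D3:**
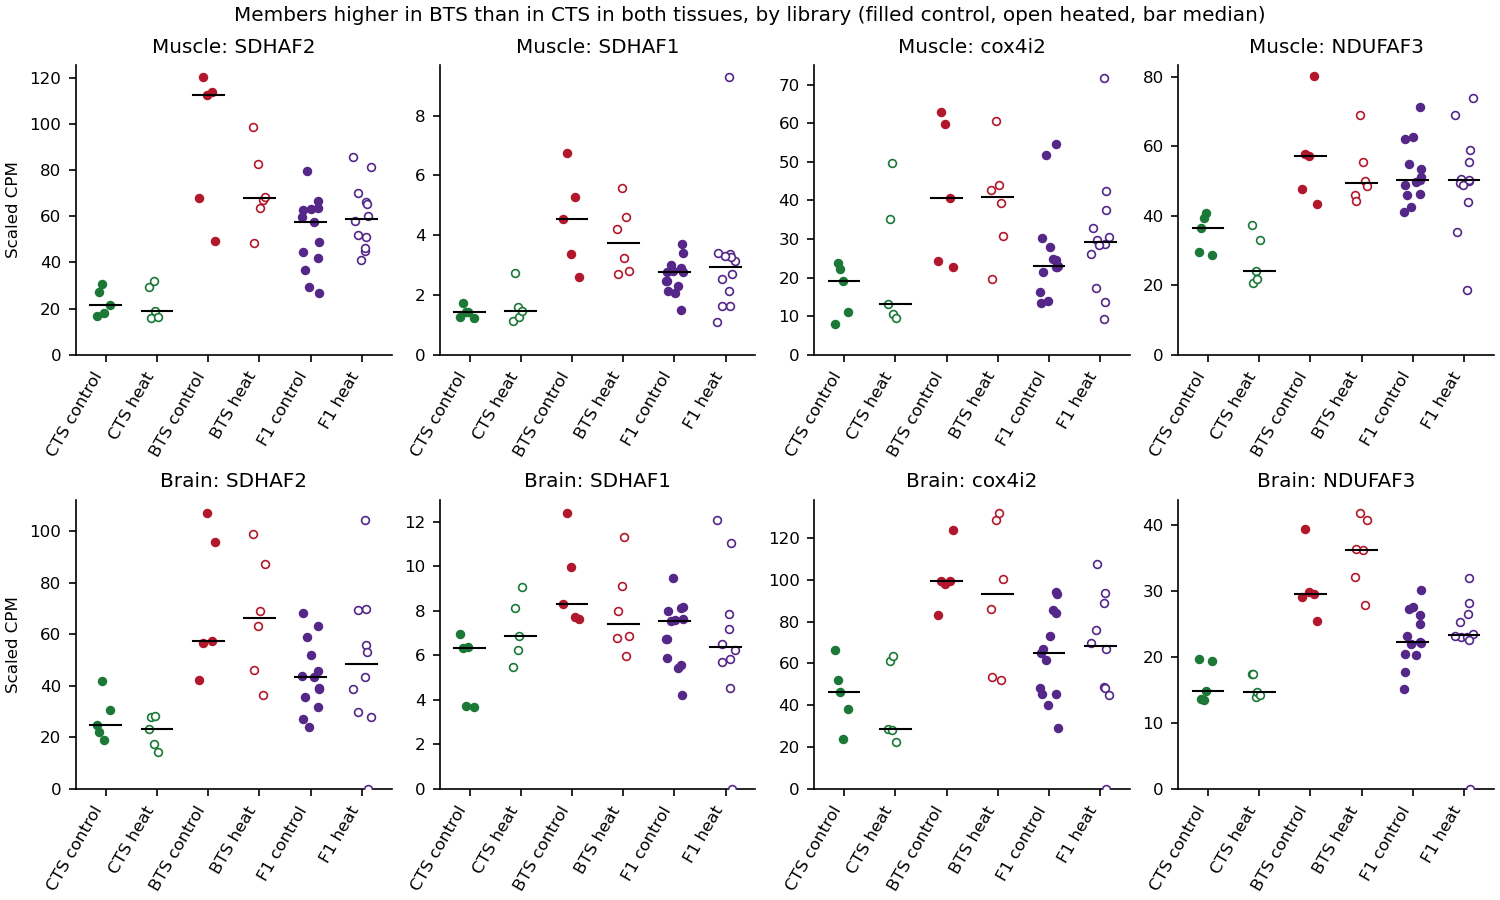
Scaled CPM in each library (linear axis from 0) of members that were higher in BTS than in CTS in both tissues, with muscle above and brain below, control libraries filled, heated libraries open and bars at group medians. For SDHAF2 all BTS libraries lie above all CTS libraries in muscle, and the F1 medians there are 57.6 CPM in controls and 58.9 CPM in heated animals, beside 21.5 CPM in control CTS and 112 CPM in control BTS.

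F1 muscle held more RNA of many members than the mean of its parental species. Over control and heated animals 28 of 45 members were higher in F1 and 0 lower, beside 8.24% of all features higher and 4.1% lower. The median was 0.49 over the members and 0.01 over all features. By complex, 10 of 16 were higher in complex I, 0 of 2 in complex II, 2 of 3 in complexes III and IV each and 8 of 11 in complex V, with 5 of 8 complex I and 1 of 2 complex II assembly factors. This comparison uses the same CTS and BTS libraries as the one between the species.

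The largest differences were 0.76 in cox7a2.S (adjusted p = 0.011), 0.75 in Ndufaf6 (0.00316), 0.73 in NDUFA8 (0.0204), 0.72 in ndufb8 (0.019), 0.71 in NDUFAF3 (AMEXTC_0340000002644, 0.000379) and 0.69 in ndufs7 (0.0132), where each value in brackets is edgeR's adjusted p. For Ndufaf6 the heated F1 libraries ran from 0 to 14.0 CPM with a median of 7.47 CPM. Heated CTS held 1.81 to 3.16 CPM (median 2.59) and heated BTS 2.38 to 5.35 CPM (median 4.23). The 0 is the shallow library of animal 11. For ndufb8 the medians in heated animals were 195 CPM in F1, 63.7 CPM in CTS and 104 CPM in BTS, and in controls 195, 113 and 158 CPM, with overlapping ranges.

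The calls came mainly from heated animals. Among them 30 of 45 members were higher in F1, with a median of 0.79, beside 7.89% of all features, and among controls 1 of 45, with a median of 0.19, beside 0.86%. The 1 called in controls was NDUFAF3 (AMEXTC_0340000002644), by 0.96. It was at 16.5 to 31.7 CPM in control F1 (median 24.8), 5.43, 6.81, 9.60, 11.3 and 18.9 CPM in control CTS and 6.61, 12.4, 12.6, 20.9 and 23.8 CPM in control BTS.

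A count in one treatment and not in the other does not show that the treatments differ. The test of the difference itself, whether heat moved F1 otherwise than the mean of the parental species, was added after these values were seen. It called 0 of 45 members by edgeR and by DESeq2, with a lowest adjusted p of 0.295, and 1 of all 12554 features, 0.00797%. The median of the tested difference was 0.57 over the members and 0.02 over all features, and 23 of 45 members had an unadjusted p under 0.05, beside 12.0% of all features. Marker lists moved in the heated animals too. Connective tissue markers summed to 284.3 to 2453 CPM in heated CTS (median 591.8), 117 to 328 CPM in heated BTS (median 255) and 190 to 1015 CPM in heated F1 (median 282). The cytosolic ribosomal protein genes had medians of 10088 CPM in heated CTS, 14101 CPM in heated BTS and 17926 CPM in heated F1. Their part in the F1 result was not tested. Leaving out heated CTS animal 7 reduced the 28 members to 24, and without animal 64 there were also 24.

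In brain 1 of 42 members was higher in F1 than the parental mean, beside 2.19% of all features. It was NDUFAF3 (AMEXTC_0340000002644), by 0.57 (adjusted p = 0.0488), and the call was lost without any 1 of 16 animals in turn, among them CTS animals 4 and 7 and BTS animals 20 and 38. F1 animals were not left out in turn. Within controls or heated animals alone edgeR called 0 members, beside 0.639% and 0.826% of all features, with 1 and 3 members at an unadjusted p under 0.05.

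Heat itself was followed by few called changes. In muscle, with the 3 genotypes weighted equally, 0 of 45 members rose and 2 fell, beside 0.223% of all features that rose and 0.534% that fell. One of these 2 reached the mean of 1 CPM through its control libraries, so its fall is a description. The median was -0.25 over the members and -0.01 over all features. The fitted value was below 0 for 44 of 45 members and below the median of all features for 43. An unadjusted p under 0.05 was reached by 10 of 45 members, beside 11.3% of all features.

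Both members that fell are complex V features with few reads. The atp5g3 feature AMEXTC_0340000067166 was at 0, 0, 1.37, 4.25 and 6.31 CPM in control CTS and 0.0924, 0.106, 0.302, 0.472 and 0.686 CPM in heated CTS. In control BTS it was at 0.157, 0.363, 5.57, 11.7 and 12.4 CPM and in heated BTS from 0.0517 to 1.31 CPM with a median of 0.330 CPM. In F1 it ran from 0.179 to 5.68 CPM in controls (median 0.598) and from 0 to 2.60 CPM in heated animals (median 0.943), with overlapping ranges. The highest values are those of control libraries in each genotype, and other controls lie as low as heated animals. The group means were 2.39, 6.05 and 1.89 CPM in control CTS, BTS and F1 and 0.332, 0.476 and 1.15 CPM in heated ones, which is how the feature passed the mean of 1 CPM through its controls.

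For atp5d (AMEXTC_0340000067807), a gene of the central stalk, the control values were 0.951, 1.63, 4.64, 9.78 and 13.7 CPM in CTS and 0.551, 1.27, 8.93, 14.6 and 24.3 CPM in BTS. Heated CTS held 0.462, 0.529, 1.51, 2.64 and 3.43 CPM and heated BTS 0.724 to 4.76 CPM with a median of 1.29 CPM. In F1 it ran from 0.685 to 17.6 CPM in controls (median 2.69) and from 0.321 to 9.28 CPM in heated animals (median 3.96), so that the groups overlapped widely. It fell by 1.65 (SE 0.42, adjusted p = 0.0454). The abundant features of the same names did not pass: atp5g3 (AMEXTC_0340000039760) gave -0.36 (adjusted p = 0.304) and atp5d (AMEXTC_0340000283997) -0.25 (adjusted p = 0.569). Neither of the 2 calls held without heated CTS animal 7, control BTS animal 68 or control CTS animal 83, or without the libraries with skin markers, where the median over the members was -0.13.

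By complex the median heat response in muscle of CTS was -0.47 for complex I, -0.16 for complex II, -0.56 for complex III, -0.86 for complex IV and -0.64 for complex V, with 0 of 45 members called by edgeR, beside 0.39% of all features, and 8 at an unadjusted p under 0.05, beside 15.0%. In BTS the medians were -0.43, -0.11, -0.40, -0.48 and -0.46, with 0 called, beside 0.0159%, and 4 at an unadjusted p under 0.05, beside 5.81%. In F1 they were 0.16, -0.14, 0.13, 0.19 and 0.00, with 0 called, beside 0.119%, and 1 at an unadjusted p under 0.05, beside 10.5%. Over all members the medians were -0.48 in CTS, -0.40 in BTS and 0.13 in F1, beside -0.04, -0.02 and 0.00 over all features. With library totals as the scaling they were -0.77, -0.19 and 0.23, beside -0.39, 0.20 and 0.07 over all features, so that relative to all features they were -0.44, -0.38 and 0.13 with TMM and -0.38, -0.39 and 0.16 with library totals. With TMM 29 of 45 members had values below 0 in both species and above 0 in F1. How many of all features had these signs was not counted, and members measured in the same libraries are not independent. DESeq2 called 1 member in CTS and 0 in BTS and F1, and the shares of all features it called are not given here.

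The most abundant members show the size of this. Atp5b was at 2497, 2728, 3033, 3962 and 5022 CPM in control CTS muscle and at 1387, 1738, 2146, 2630 and 3895 CPM in heated CTS, with medians of 5635 CPM in control and 5009 CPM in heated F1. Its mean change was -0.30 (SE 0.14, adjusted p = 0.413). For sdha.L heated CTS held 494, 700, 1028, 1061 and 1707 CPM beside 941 to 1339 CPM in controls. The test of whether the heat response differs among the 3 genotypes called 0 of 45 members, with 9 at an unadjusted p under 0.05. Over all features it called 0.0478%, with 12.5% at an unadjusted p under 0.05.

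Other gene lists were summed in control and heated CTS muscle as well. The slow muscle fibre markers, 6 of 8 found, summed to a median of 15938 CPM (14785 to 19909) in control and 9405 CPM (5244 to 18723) in heated CTS. The fast fibre markers, 5 of 7 found, went the other way, with 104152 CPM (51094 to 122594) and 145718 CPM (63750 to 236929). Connective tissue markers had medians of 400.8 CPM and 591.8 CPM. Skin markers differed little, with medians of 89.8 CPM (60.9 to 907) and 73.2 CPM (59.2 to 368). The cytosolic ribosomal protein genes also differed little in CTS, with medians of 9591 CPM and 10088 CPM. In BTS muscle their median was lower in heated than in control animals, and in F1 muscle it was higher. No found marker of these lists was at 0 throughout, and their part in the heat response was not tested.

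**Figure D4:**
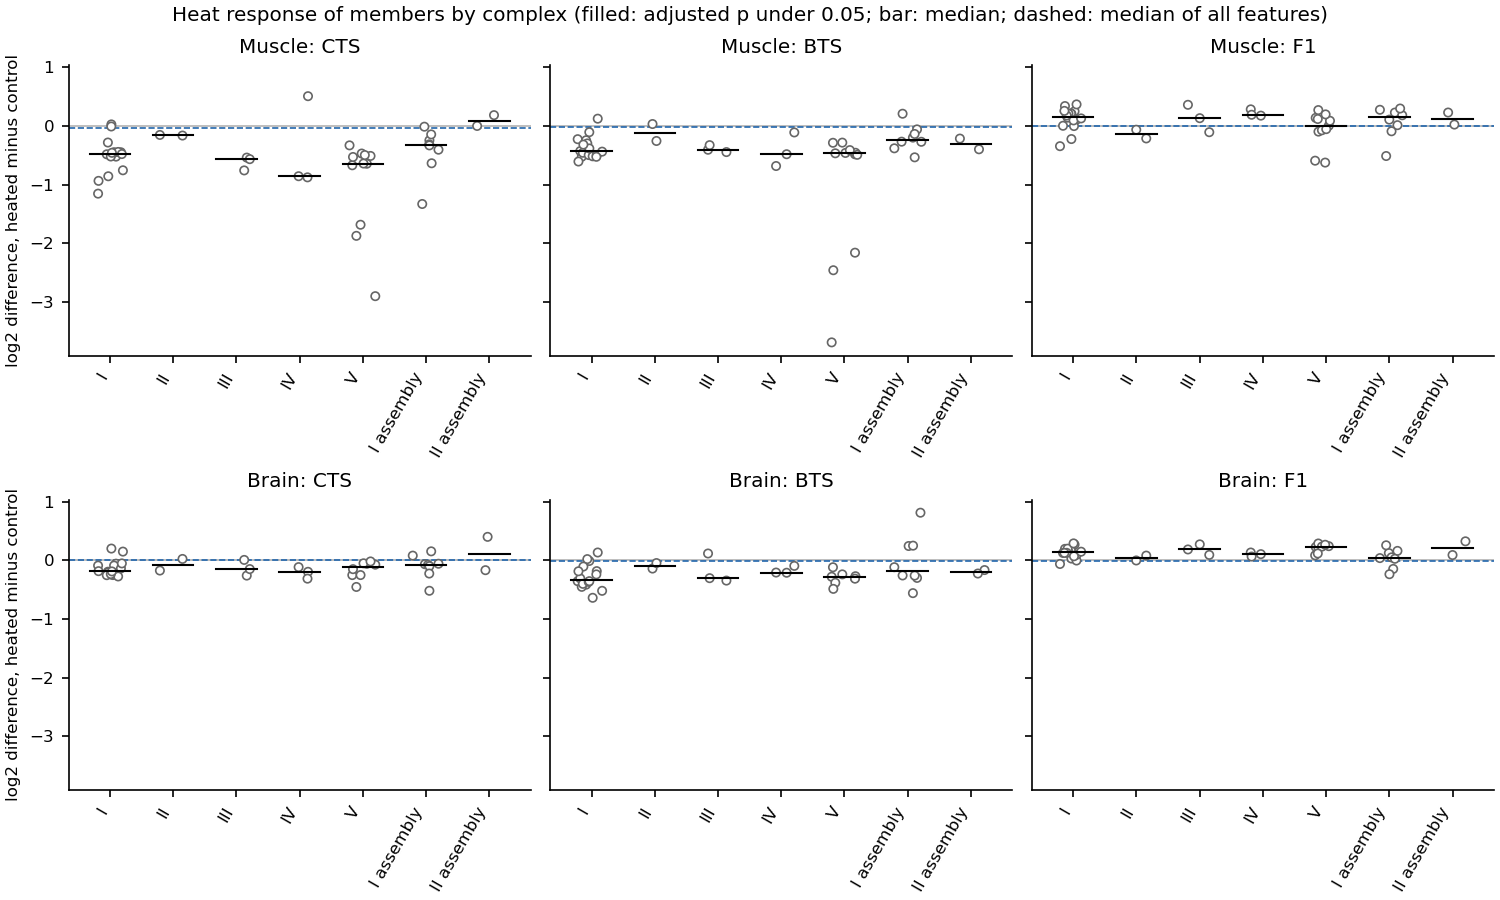
Log2 difference between heated and control animals for each member by complex, in CTS, BTS and F1, for muscle (top) and brain (bottom). No point is filled, as 0 members passed an adjusted p of 0.05 within a genotype. Bars are medians, which in muscle complex V stand at -0.64 in CTS, -0.46 in BTS and 0.00 in F1.

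In brain 0 of 42 members passed the test of the mean heat response by edgeR, beside 0.0968% of all features, with 1 member at an unadjusted p under 0.05, beside 6.41%, and 0 called by DESeq2. The median was -0.07 over the members. Within CTS, BTS and F1 the medians were -0.14, -0.25 and 0.13, again with 0 called in each by edgeR and DESeq2, beside 0%, 0% and 0.0516% of all features, and with 0, 3 and 0 at an unadjusted p under 0.05, beside 3.50%, 5.39% and 5.63%. The test among the 3 genotypes called 0 of 42, beside 0% of all features, with 1 at an unadjusted p under 0.05, beside 4.47%. Further, 31 of 42 members had values below 0 in both species and above 0 in F1. The share of all features with these signs was not counted, and members measured in the same libraries are not independent. The test of F1 against the parental mean in heat response called 0 of 42, with a median of 0.33, 5 members at an unadjusted p under 0.05, beside 7.75% of all features, and a lowest adjusted p of 0.601. The difference in heat response between the tissues was called for 0 of 45 members by edgeR and DESeq2, beside 0.221% of all features, with 2 at an unadjusted p under 0.05, beside 7.86%.

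Members differed in how steady they were. Within groups of brain libraries the SD of log2(CPM + 1) was lowest in ndufs8.L, a core subunit of complex I, at 0.156, and in sdhc at 0.220, and highest in cox6a1 at 0.617. The median SD by complex was 0.251 for complex II, 0.408 for complex I, 0.437 for complex III, 0.483 for complex V and 0.566 for complex IV. In muscle it was 0.373 for complex II, 0.480 for complex I, 0.476 for complex V, 0.598 for complex III and 0.689 for complex IV. In both tissues complex II had the lowest and complex IV the highest of these medians, over 2 and 3 genes and with no test.

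Nearly all members were higher in muscle than in brain. In control animals 40 of the 42 members with a mean of at least 1 CPM in each tissue were higher in muscle and 1 lower by edgeR's test, beside 17.1% of 16288 features higher and 70.2% lower. The other 3 members, atp5g3 (AMEXTC_0340000067166), atp5d (AMEXTC_0340000067807) and ATP5L, averaged 0.115, 0.344 and 0.426 CPM in brain. They entered through muscle alone, so that their higher level there follows from the choice. The median log2 difference was 2.81 over the 42 members and -1.37 over all features. The gap between these medians was 4.17. The median of all features itself moved with the scaling, from -2.36 to -0.19 across the settings tried. That of the 42 members moved with it, from 1.80 with library totals to 3.97 with no filter, while the gap lay between 4.11 and 4.29. A change of scaling shifts all features nearly alike, so the narrow range of the gap is no test of the scaling. Of the 42 members 36 were higher in muscle under each of 36 settings. Of these settings 22 leave out 1 CTS or BTS animal, including heated ones, which carry no weight in this contrast of controls.

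Among the members that passed in both tissues, complex V had a median of 3.22 with 8 of 8 higher, complex III 3.30 with 3 of 3, complex I 2.98 with 16 of 16, complex II 2.67 with 2 of 2 and complex IV 0.65 with 2 of 3. Atp5b was 11.4 times higher in muscle (log2 3.51, SE 0.18, adjusted p = 3.02e-32) and NDUFA8 12.8 times, folds that move with the scaling as the medians do. In complex II sdhc was 6.77 times and sdha.L 6.01 times higher. The complex I assembly factors lay lower, with a median of 1.89 and 8 of 8 higher, from NDUFAF7, which methylates a complex I subunit, at 0.47 to NDUFAF3 (AMEXTC_0340000002644) at 2.38.

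Complex IV stood apart in its isoforms: cox6a1 differed by 1.92, cox7a2.S by 0.65 and cox4i2 by -0.28 (SE 0.18, adjusted p = 0.141). The cox4i2 value turned to 0.76 without the 2 shallow libraries. With the shallow libraries kept, it also turned to 0.81 without the libraries with skin markers and to 0.88 with no filter. The mammalian counterparts of cox6a1 and cox7a2 are the forms used outside muscle, and the muscle forms COX6A2 and COX7A1 are not analysed here. SDHAF1 was lower in muscle, by -0.44 (SE 0.14, adjusted p = 0.00288). It was higher, at 0.62, without the 2 shallow libraries, at 0.63 without the libraries with skin markers and at 0.73 with no filter. Even the lowest member lay 0.93 above the median of all features. The direction of SDHAF1, cox4i2, cox7a2.S and NDUFAF7 thus depends on the scaling, the filter and the libraries included, and the cause was not tested.

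**Figure D5:**
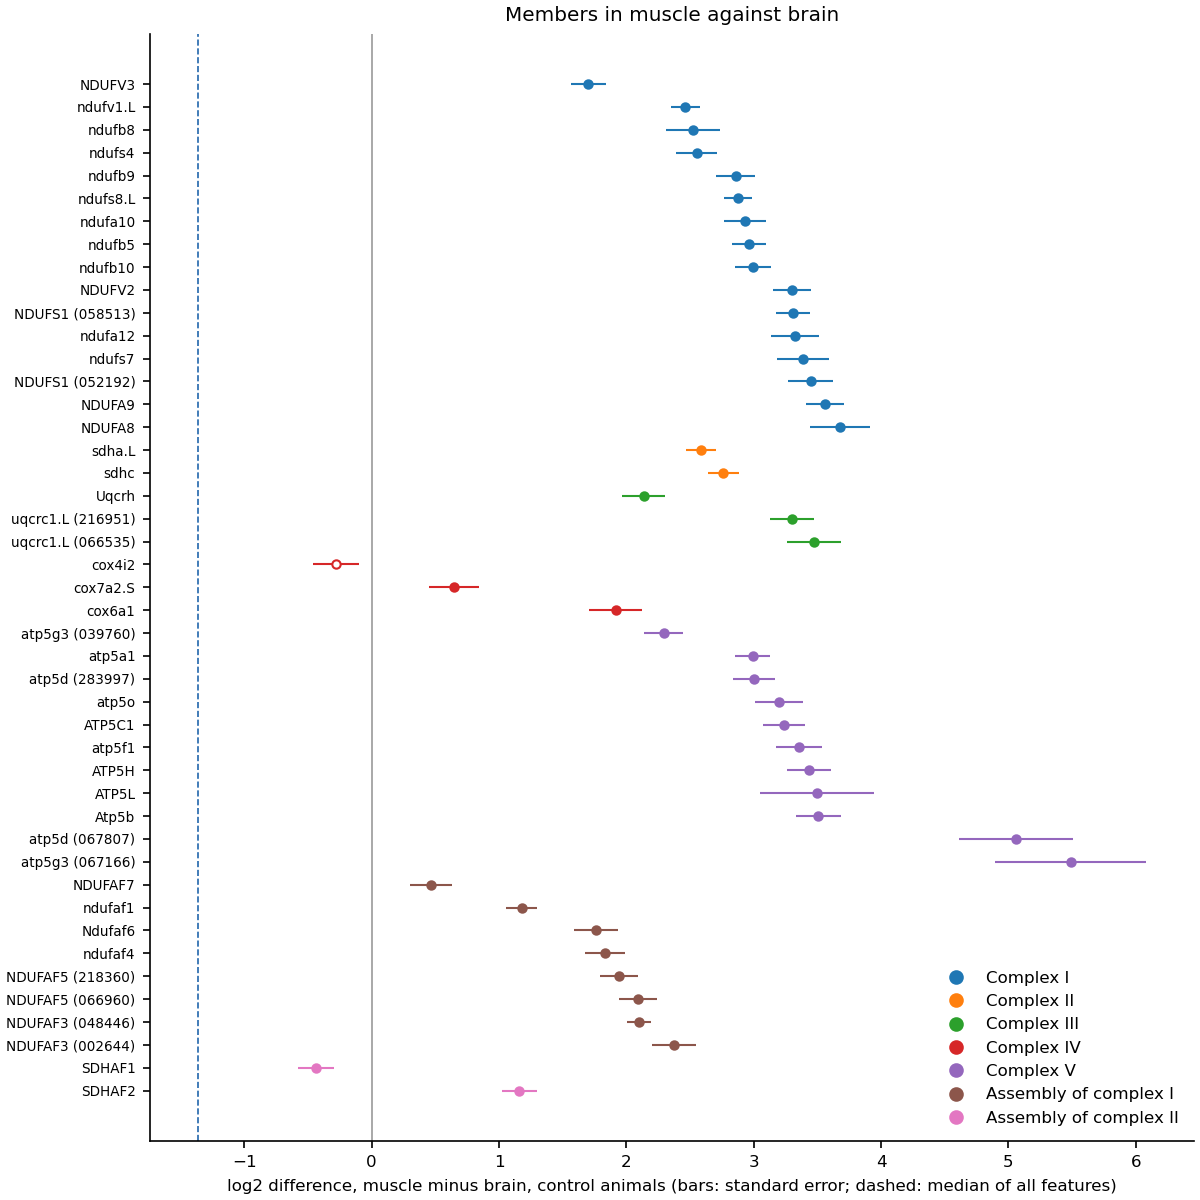
Log2 difference between muscle and brain in control animals for each member, ordered by complex, with bars of 1 standard error and a dashed line at the median of all features. The members that passed 1 CPM in both tissues lie between -0.44 (SDHAF1) and 3.68 (NDUFA8), the complex V features that passed in muscle alone reach 5.49, and the dashed line lies at -1.37.

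Neighbouring genes of the pathway outside the name rule were counted in the same fits. In muscle 11 of 17 citric acid cycle features were higher in BTS than in CTS and 0 lower, beside the 22.6% and 24% of all features given above. The list counted here as the citric acid cycle also names subunits of pyruvate dehydrogenase and the kinases that switch it off. Among the higher features were idh2.L, a mitochondrial isocitrate dehydrogenase, by 1.11, FH, fumarase, by 0.73, and PDK2, one of these kinases, by 1.95. All 4 electron carriers and other dehydrogenases tested were higher, with ETFDH, which feeds electrons from fatty acid oxidation into ubiquinone, at 1.04. Of 14 assembly factors outside the rule 8 were higher and 3 lower, with cox18 at 1.99 and SURF1, an assembly factor of complex IV, at 1.56, and TMEM70, which helps to build complex V, at -1.11. Of 12 regulators and genes of mitochondrial DNA upkeep 6 were higher, among them PPARGC1A, a coactivator of mitochondrial genes, by 0.81 and tfb2m, a mitochondrial transcription factor, by 1.53.

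In brain the citric acid cycle list had 2 of 18 features higher in BTS and 1 lower, the assembly factors 4 of 14 higher and 4 lower, the carriers 1 of 4 higher and 1 lower, and the regulators 1 of 12 higher and 1 lower, beside 18.1% and 17% of all features. F1 muscle was higher than the parental mean in 3 of 17 citric acid cycle features, 1 of 4 carriers, 4 of 14 assembly factors (1 lower) and 1 of 12 regulators, beside 8.24% of all features higher and 4.1% lower. In muscle against brain 16 of 17 citric acid cycle features were higher and PDK1 lower, 13 of 14 assembly factors higher and 0 lower, 2 of 4 carriers higher and 1 lower, and 6 of 12 regulators higher and 5 lower. These lists were kept by the mean level in muscle, which favours features that are higher there. Kept by the mean level in brain, 16 of 18 citric acid cycle features were higher and 2 lower. The counts of the other lists were the same. Over all features 17.1% were higher in muscle and 70.2% lower. The mean heat response in muscle called 0 of 17 citric acid cycle features, beside 0.223% of all features that rose and 0.534% that fell. All 17 values were below 0, with a median of -0.25, beside -0.01 over all features. The names of the 13 mitochondrially encoded subunits matched no feature, and these genes are not analysed here.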

How the data were processed

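Poly(A) RNA was made into stranded libraries and sequenced as single reads, per the labels' protocols. The authors deposited raw read counts per gene for brain (48 columns) and muscle (50 columns). The submitters' processing notes name Trimmomatic, FastQC, STAR and HTSeq, whereas the sources used here do not give versions, counting options or the counting reference. All members and gene lists were chosen with earlier results of these data known.

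Genotype and treatment came from the tags. The counts were scaled by TMM, filtered by filterByExpr and fitted in edgeR 4.0.16 (R 4.3.3) by a quasi-likelihood model with terms for group and sex. Each tissue's CTS, BTS and F1 libraries shared 1 fit, and both tissues shared 1 for muscle against brain, with two-sided Benjamini-Hochberg adjusted p over all features and a threshold of 0.05. Each library of a tissue is a separate animal by its number. Each SE is the size of the log2 difference divided by the root of its F value. Libraries of a group differed by more than sampling noise: chi-square per degree of freedom was at least 10.33 in muscle and 8.33 in brain. Precision is limited by depth in the 2 shallow libraries.

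Named genes were, for each comparison, up to 6 called members per direction with the largest change, for the heat response also the most abundant and the lowest p in each complex, for the tissues up to 3 per complex, and fixed isoforms and core subunits. Others named, such as ndufb9 and atp5o, were chosen after their values were seen. Animals shared by the tissues pair those samples by the numbers in the titles: over 42 pairs the mean correlation of deviations was 0.123 (-0.0719 to 0.348, over 0.1 in 24) against -0.00302 between animals. Alternatives were DESeq2 1.42.0, RLE scaling (DESeq2's size factors), library totals, other filters, no sex term, libraries or treatments left out, and the animal as a block. Leaving out libraries with skin markers was chosen after seeing the data. Only CTS and BTS animals were left out in turn, so dependence on single F1 animals was not tested in this way. The values of 1 member just outside the threshold on mean level are not reported here.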

Additional observations from a re-analysis of the deposited data

Results flagged for a closer look

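In heated F1 brain the summed level of the complex I assembly factors was 0 CPM in animal 16 and at least 73.3 CPM in the other 9 animals. The gap is 0.539 of the range of the 10 libraries, and such a gap test flags about 1 in 20 groups by chance. It was run on 63 sums. The library of animal 16 holds 5418 reads.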

How the results depend on the processing

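Counts of called members moved as follows. The ranges with 1 animal left out cover CTS and BTS animals only, and F1 animals were not left out in turn. Between BTS and CTS in muscle the 29 members became 11 in controls only, 16 without the libraries with markers of other tissues and 14 without those with skin markers, and 28 to 32 when 1 animal was left out in turn. All of these settings use fewer libraries, and shares of all features without the libraries with markers are not given here. Between F1 and the parental mean in muscle the 28 became 1 in controls only and 24 to 33 with 1 animal left out. In brain the 10 members between BTS and CTS became 5 in controls only, 5 in heated animals only and 4 with the subunits only, where fewer features are counted, and 7 to 12 with 1 animal left out. The 1 member called between F1 and the parental mean in brain became 0 in controls only, in heated animals only, with RLE scaling, with library totals, with no filter, without animal 64, without the libraries with markers of other tissues and with subunits only, and 0 to 1 with 1 animal left out. The 2 members called for heat in muscle became 1 with library totals or without animal 76. They also became 1 without the 4 muscle controls with markers of other tissues, a setting that leaves out no heated muscle library. They became 0 without the libraries with skin markers or with a mean of at least 5 CPM, which removes both. With 1 animal left out they became 0 to 2, and the median ran from -0.34 to -0.19 in muscle and from -0.12 to -0.02 in brain. Within CTS muscle DESeq2 called 1 in place of 0, with its share of all features not given here. Without the skin libraries the heat values of sdhc (0.0090) and sdha.L (0.024) turned positive. Between muscle and brain cox7a2.S turned to -0.050 with RLE scaling and with DESeq2 and to -0.35 with library totals, NDUFAF7 to -0.22 with RLE scaling and with DESeq2 and to -0.53 with library totals, cox4i2 to 0.88 with no filter, 0.76 without the shallow libraries, 0.89 without libraries with markers of other tissues and 0.81 without those with skin markers, and SDHAF1 to 0.73 with no filter, 0.62 without the shallow libraries, 0.64 without libraries with markers of other tissues and 0.63 without those with skin markers. Uncalled values between BTS and CTS in muscle turned for ndufaf1 (0.16) and Ndufaf6 (-0.41) in controls only, for Ndufaf6 (-0.15) and NDUFAF7 (-0.26) without libraries with markers of other tissues and for Ndufaf6 (-0.20) without those with skin markers, and between F1 and the parental mean for atp5g3 (AMEXTC_0340000067166, -0.99) in controls only. The cause was not tested. With the animal as a replicate block 44 members were called between the tissues (43 higher, 1 lower, median 2.86). These take in the complex V features that passed in muscle alone, whose higher level there follows from the choice. Over the 42 members that passed in both tissues the median with the block was 2.82. The block called 0 members for the difference in heat response, and pairing changed no other call. No paired analysis was possible within a tissue because each animal gave 1 library there. Depth limits the 2 shallow libraries, with 66186 and 5418 reads.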

Other observations

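The 4 backcross animals entered no comparison. In muscle the complex I subunits summed to 3815 CPM in the control BTSbc animal 26, to 3582 and 4316 CPM in heated BTSbc animals 12 and 30, and to 2960 CPM in heated CTSbc animal 84. The complex II sums of the same animals were 1645, 1671, 1989 and 1491 CPM. For SDHAF2 and SDHAF1 together the sums were 96.7, 58.4, 67.7 and 36.9 CPM in muscle and 135, 62.3, 63.3 and 37.0 CPM in brain. The titles of these animals name other genotypes than their tags: BTS for animals 12 and 26, and F1 for animals 30 and 84.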
